A study of Mus musculus with 6 samples.

Results

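Amino acid transporters of T cells are described here in regulatory T cells (Tregs) from mouse colon tumours. The genes were 9, listed by symbol with earlier results of these data known: Slc7a5, Slc3a2, Slc1a5, Slc7a1, Slc7a6, Slc7a11, Slc38a1, Slc38a2 and Slc43a2. All 9 had a row in the array table, each had 1 row, and they are 9 of 19494 genes measured. Mice of the genotype Foxp3-RFP x GPR15-GFP were given the carcinogen azoxymethane and the colitis-inducing dextran sulfate sodium to bring on colorectal cancer. CD4-stained lymphocytes that carried the red Foxp3 reporter were sorted from the tumorous colonic lamina propria by the green reporter of the homing receptor GPR15, giving 3 arrays of GPR15-GFP+ and 3 of GPR15-GFP- Tregs. All 6 samples thus share the genotype, the carcinogen, the colitis and the tumour, and the labels give neither the age of the mice, nor whether animals were pooled, nor whether 1 or both Gpr15 alleles carry the reporter. Each fraction has a sample numbered 1, 5 and 6.

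A T cell that is activated has to import amino acids to build protein, and the transporters do so in families with different cargo. The heavy chain CD98, encoded by Slc3a2, carries light chains to the cell surface, among them the leucine transporter LAT1 (Slc7a5), the exchanger of cationic and neutral amino acids y+LAT2 (Slc7a6) and the cystine importer xCT (Slc7a11). Glutamine enters through ASCT2 (Slc1a5) and the sodium-coupled carriers SNAT1 (Slc38a1) and SNAT2 (Slc38a2), arginine and lysine through CAT1 (Slc7a1), and LAT4 (Slc43a2) passes large neutral amino acids without a heavy chain. Leucine and arginine inside the cell are sensed by the kinase complex mTORC1, and a shortage of amino acids acts through the transcription factor ATF4, which is known to drive several of these genes.

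The promoter of Slc7a11 is the textbook case of that last link and is shown beside that of Asns, the asparagine synthetase gene, a standard ATF4 target. Of the 9 transporters, 6 had promoter windows in the RefSeq table (build GRCm38.p6), 9 windows in all. Each window runs from 250 bases before to 50 bases after a transcription start. Capitals mark each match to the C/EBP-ATF element, searched as TGATGNAA on both strands, and both sequences are on the minus strand of the genome, at chr3:50443564-50443863 for Slc7a11 and chr6:7693160-7693459 for Asns.
Slc7a11: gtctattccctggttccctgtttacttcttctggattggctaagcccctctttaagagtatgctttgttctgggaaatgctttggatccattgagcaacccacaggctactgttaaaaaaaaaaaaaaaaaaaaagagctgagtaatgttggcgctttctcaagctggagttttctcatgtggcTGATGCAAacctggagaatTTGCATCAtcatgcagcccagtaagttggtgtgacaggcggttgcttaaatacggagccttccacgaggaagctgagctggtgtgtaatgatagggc
Asns: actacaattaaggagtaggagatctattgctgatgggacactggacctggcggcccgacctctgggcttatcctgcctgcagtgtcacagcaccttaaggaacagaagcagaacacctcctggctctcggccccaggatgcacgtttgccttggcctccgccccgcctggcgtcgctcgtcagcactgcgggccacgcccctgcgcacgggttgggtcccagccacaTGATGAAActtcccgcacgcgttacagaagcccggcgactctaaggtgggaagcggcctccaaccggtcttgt

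Slc7a11 held 2 matches that face each other, with first bases at -66 and -47 from the start, and Asns held 1, at -23. Of 32851 promoter windows of this length, 3.97% held the element, and 23 windows, or 0.07%, held 2 or more. None of the other 5 transporters with a window held it there, and sequence outside the windows was not searched. The E-box letters CACGTG, found in 7.15% of windows, were in no window of these transporters. The antioxidant response element core TGACNNNGC, found in 12.4% of windows, was present for Slc7a1, Slc7a6 and Slc38a2. These matches describe letters and do not show that a factor binds.

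On the arrays the glutamine carriers and the heavy chain were among the brightest genes of these Tregs. Slc1a5 had a mean log2 level of 11.40 over the 6 arrays, at the 99.3 percentile of all genes, Slc38a2 10.90 (98.6 percentile) and Slc3a2 10.44 (97.7 percentile). Slc38a1 followed at 9.28 (92.8 percentile), Slc7a1 at 8.45 (85.1 percentile) and Slc7a5 at 8.39 (84.3 percentile). Slc43a2 at 7.08 (60.7 percentile) and Slc7a6 at 6.64 (50.5 percentile) lay lower, and the cystine importer Slc7a11 was the dimmest at 5.80 (32 percentile). Array brightness also depends on the probes of each gene, so the order is one of signal and not of transcript number. The 6-array ranges of Slc38a2 and Slc3a2 overlapped. So did those of Slc7a1 and Slc7a5, of Slc7a5 and Slc43a2, of Slc43a2 and Slc7a6, and of Slc7a6 and Slc7a11. Slc1a5 did not overlap Slc38a2, and Slc38a1 overlapped neither of its neighbours.

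**Figure D1:**
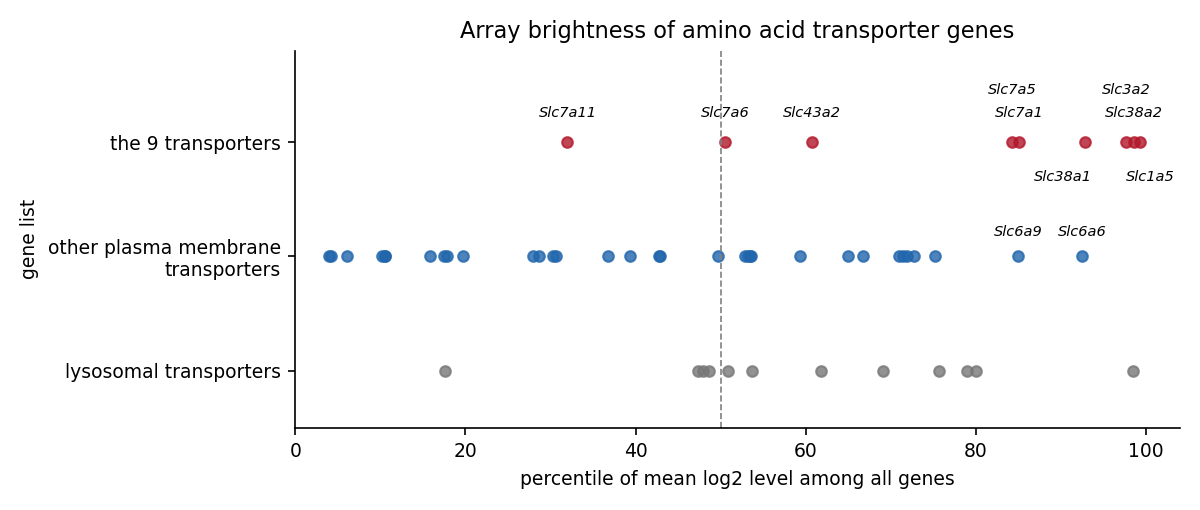
Percentile of the mean log2 level among all 19494 genes (horizontal axis) for the 9 transporters, 33 other plasma membrane amino acid transporters and 12 lysosomal ones (rows); each point is a gene and the dashed line is the median of all genes. Of the 9, 8 lie above that median and 6 lie in the top 20%, against 14 and 2 of the other 33.

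Most other amino acid transporters of the plasma membrane were dim. Of 33 listed and measured, 14 were brighter than the median gene and 2 were in the top 20%, the taurine transporter Slc6a6 (92.5 percentile) and the glycine transporter Slc6a9 (85.0 percentile). The median percentile was 42.8 for these 33 and 85.1 for the 9. This list spans carriers of kidney, gut and brain, whereas the 9 were named for T cells, so the gap describes the choice of genes too. Of 12 lysosomal amino acid transporters, 8 lay above the median level.

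Between the fractions, none of the 9 transporters differed beyond the spread of the arrays. Limma, fitted over all genes with 3 arrays against 3, gave adjusted p-values from 0.796 for Slc7a11 to 0.962 for Slc38a1. No transporter passed an adjusted p of 0.05, and among all genes 0% did. None of the 9 had an unadjusted limma p under 0.05 either, against 6.23% of all genes, and none had 3 GPR15+ arrays clear of the 3 GPR15- arrays, against 13.3%. With the number as a block, again 0 of 9 had an unadjusted limma p under 0.05, against 12.4% of genes. Samples of equal number were treated as pairs there and in the differences by number, but not in the main fit. The labels do not say what the numbers stand for. Of the 9, 5 lay above 0 and 4 below, where 40.8% of all genes lay above. Their median difference was 0.07 log2 units, against -0.06 for all genes, and the median of their absolute differences was 0.17, against 0.19. In pairs of equal number the median of the 9 was -0.08, 0.08 and -0.01 for 1, 5 and 6. Without GPR15- replicate 1 it was -0.10.

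**Figure D2:**
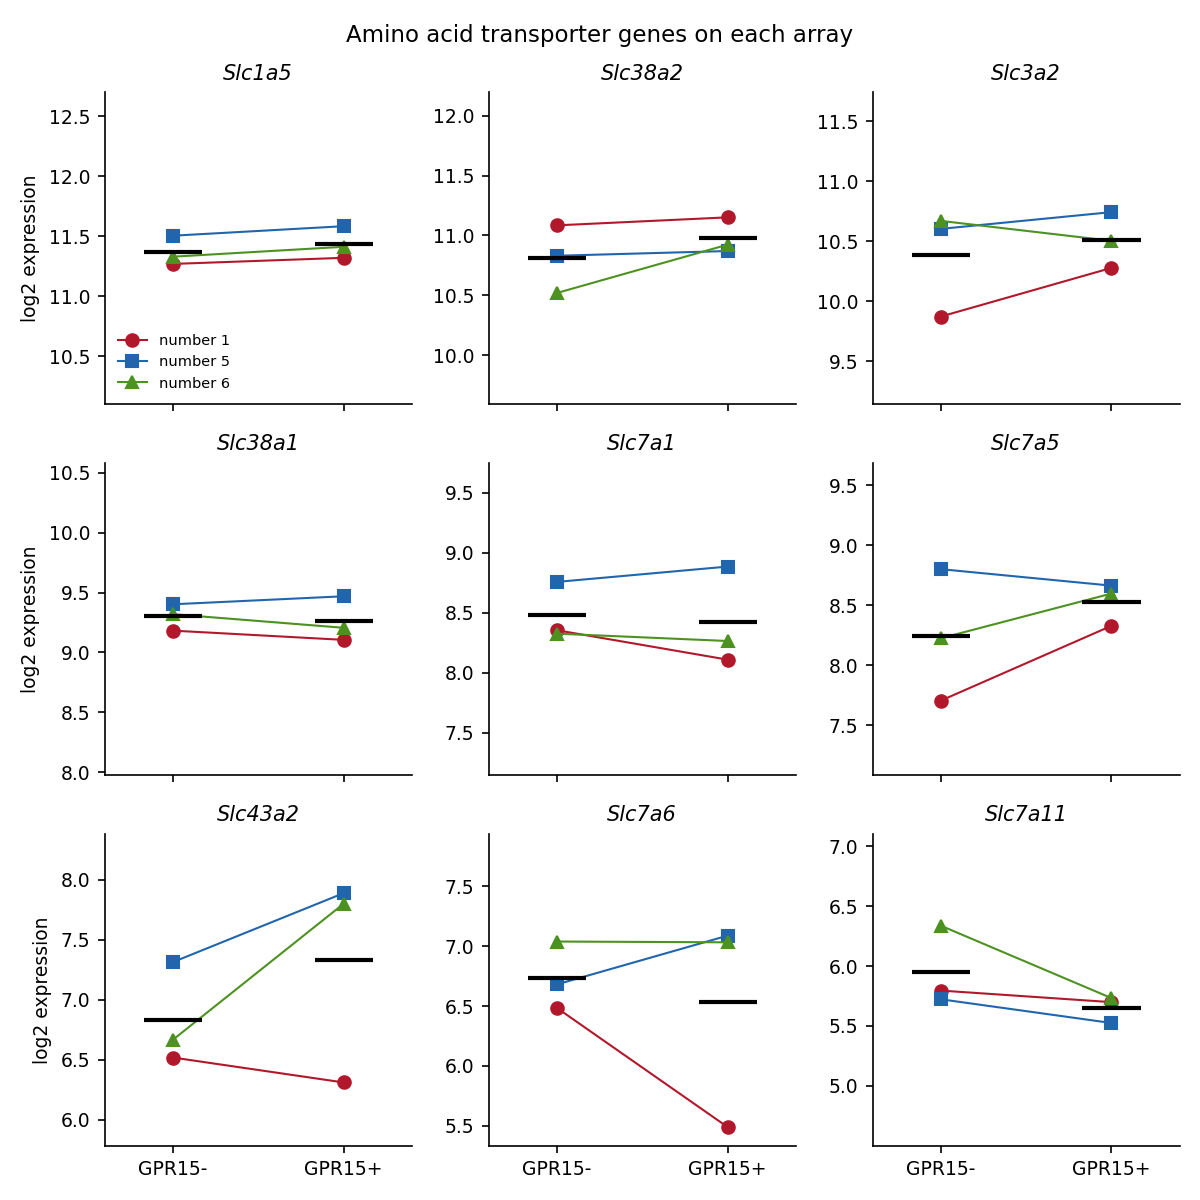
Log2 expression of each transporter (vertical axis, with the same span in every panel) on the GPR15- and GPR15+ arrays, with samples of equal number joined and black bars at the means of 3. The fractions overlap in all 9 panels, and in 8 of 9 the arrays numbered 1 have a lower mean than those numbered 5 and 6.

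Neither the heavy chain nor its light chains parted the fractions. Slc3a2 read 9.87, 10.60 and 10.67 on the GPR15- arrays numbered 1, 5 and 6, and 10.28, 10.74 and 10.50 on the GPR15+ arrays. Both arrays numbered 1 were the lowest of their fraction, and the fractions overlapped. The difference, GPR15+ minus GPR15-, was 0.13 ± 0.25 (SE), with a 95% interval of -0.46 to 0.71. Slc7a5, the leucine transporter, read 7.70, 8.80 and 8.22 on the GPR15- arrays and 8.33, 8.66 and 8.60 on the GPR15+ arrays. The GPR15- values spread over more than a log2 unit and enclosed all 3 GPR15+ values. Its difference was 0.29 ± 0.28 (SE; limma adjusted p = 0.846), or 1.22-fold with an interval of 0.778 to 1.91, and the pairs stood at 0.62, -0.14 and 0.37. Without GPR15- replicate 1 the difference was 0.02, and without GPR15- replicate 5 it was 0.57.

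Slc7a6 read 6.48, 6.68 and 7.04 on the GPR15- arrays and 5.49, 7.09 and 7.03 on the GPR15+ arrays. The GPR15+ array numbered 1 lay about a log2 unit under every other array, and the other 5 lay between 6.48 and 7.09. The difference of -0.20 ± 0.42 (SE) rested on that array and was 0.33 without it. Slc7a11 read 5.80, 5.72 and 6.34 on the GPR15- arrays and 5.70, 5.52 and 5.73 on the GPR15+ arrays. The fractions touched only at the lower edge of the GPR15- values, and GPR15- replicate 6 was the highest. Its difference was -0.30 ± 0.21 (SE; limma adjusted p = 0.796), below 0 in all 3 pairs at -0.10, -0.20 and -0.60, and -0.11 without GPR15- replicate 6. At this dim level a row may hold little of the gene's own signal, and the table used here has no detection calls.

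Each light chain was also set against the heavy chain within the same array. That removes a shift common to both genes, but not a difference in spread between arrays. Slc7a5 minus Slc3a2 was -2.14 ± 0.32 (SD, n = 3) in the GPR15- and -1.98 ± 0.09 (SD, n = 3) in the GPR15+ samples. Slc7a11 minus Slc3a2 was -4.43 ± 0.41 (SD, n = 3) and -4.86 ± 0.33 (SD, n = 3). Slc7a6 minus Slc3a2 was -3.65 ± 0.27 (SD, n = 3) and -3.97 ± 0.71 (SD, n = 3), the wider spread coming with the GPR15+ array numbered 1. The exact 2-sided permutation test over samples gave p = 0.6, 0.3 and 0.6, each 0.6 after adjustment over 4 such contrasts. With 3 arrays against 3 the smallest p it can give is 0.1, so this test could not have passed 0.05 and settles nothing on the balance of light and heavy chain signal. Within pairs of equal number, Slc7a11 minus Slc3a2 was lower in the GPR15+ sample each time, by -0.50, -0.34 and -0.44 (mean -0.43, SD 0.083, n = 3 pairs). Its mean difference shrank to -0.23 after quantile normalization and to -0.21 after cyclic loess. Slc7a5 minus Slc3a2 stood at 0.22, -0.28 and 0.54 in the pairs, and Slc7a6 minus Slc3a2 at -1.40, 0.27 and 0.16, with both signs. The exact 2-sided sign-flip test over pairs gave p = 0.25 for Slc7a11 minus Slc3a2, the smallest that 3 pairs allow, and it was added after the data were seen.

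The glutamine carriers were the most even members. Slc1a5, which exchanges neutral amino acids and brings in glutamine, read 11.27, 11.51 and 11.33 on the GPR15- arrays numbered 1, 5 and 6, and 11.32, 11.58 and 11.41 on the GPR15+ arrays. The array numbered 5 was the highest and that numbered 1 the lowest in both fractions. The pairs stood at 0.05, 0.08 and 0.08, and the difference was 0.07 ± 0.16 (SE), or 1.05-fold with an interval of 0.807 to 1.37. Slc38a1 read 9.18, 9.40 and 9.32 on the GPR15- and 9.11, 9.47 and 9.21 on the GPR15+ arrays, with the same order of numbers in each fraction. Its difference was -0.04 ± 0.17 (SE), with an interval of 0.738 to 1.28-fold, and median centring of the arrays put it above 0 (0.03). In this fit without the block, the interval excluded a difference of 1.5-fold either way for Slc1a5 and Slc38a1, and 2-fold for 7 of the 9 genes.

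Slc38a2, a carrier whose transcript is known to increase when amino acids run short, read 11.08, 10.83 and 10.52 on the GPR15- arrays and 11.15, 10.87 and 10.92 on the GPR15+ arrays. It was the only one of the 9 with its highest values on the arrays numbered 1, in both fractions. Its difference was 0.17 ± 0.20 (SE; limma adjusted p = 0.872), above 0 in all 3 pairs, most in the pair numbered 6 at 0.40. Without GPR15- replicate 6 it was 0.02. Slc38a1 minus Slc38a2 within arrays was -1.51 ± 0.36 (SD, n = 3) in the GPR15- and -1.72 ± 0.32 (SD, n = 3) in the GPR15+ samples (exact permutation p = 0.5). Together with Slc1a5 and Slc7a11, Slc38a2 made up the 3 of 9 with 1 sign in all pairs, as did 37% of all genes.

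Slc7a1, the arginine and lysine transporter, read 8.35, 8.76 and 8.32 on the GPR15- arrays and 8.11, 8.88 and 8.26 on the GPR15+ arrays. The arrays numbered 5 were the highest in each fraction and the others lay close together. Its difference was -0.06 ± 0.25 (SE), with a 95% interval of -0.63 to 0.51, and median centring of the arrays put it above 0 (0.01).

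Slc43a2, which passes large neutral amino acids without CD98, had the largest difference of the 9. It read 6.52, 7.32 and 6.67 on the GPR15- arrays and 6.31, 7.89 and 7.80 on the GPR15+ arrays. The GPR15+ arrays numbered 5 and 6 were above every GPR15- array, and the GPR15+ array numbered 1 was below them all. The difference was 0.50 ± 0.43 (SE; limma adjusted p = 0.824), or 1.41-fold with an interval of 0.706 to 2.83, and the pairs stood at -0.21, 0.57 and 1.13. Without GPR15+ replicate 1 it was 1.01 (limma adjusted p = 0.155), and without both arrays numbered 1 it was 0.85 (limma adjusted p = 0.149). The value was 0.22 when GPR15+ replicate 5 was left out and 0.27 when GPR15+ replicate 6 was, and the call did not change. With array weights it was 0.89 and passed (limma adjusted p = 0.0403), in a fit that called 2174 genes. Those weights ran from 0.191 for the GPR15+ array numbered 1 to 6.56 for the GPR15+ array numbered 6, and their estimation stopped before it converged.

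**Figure D3:**
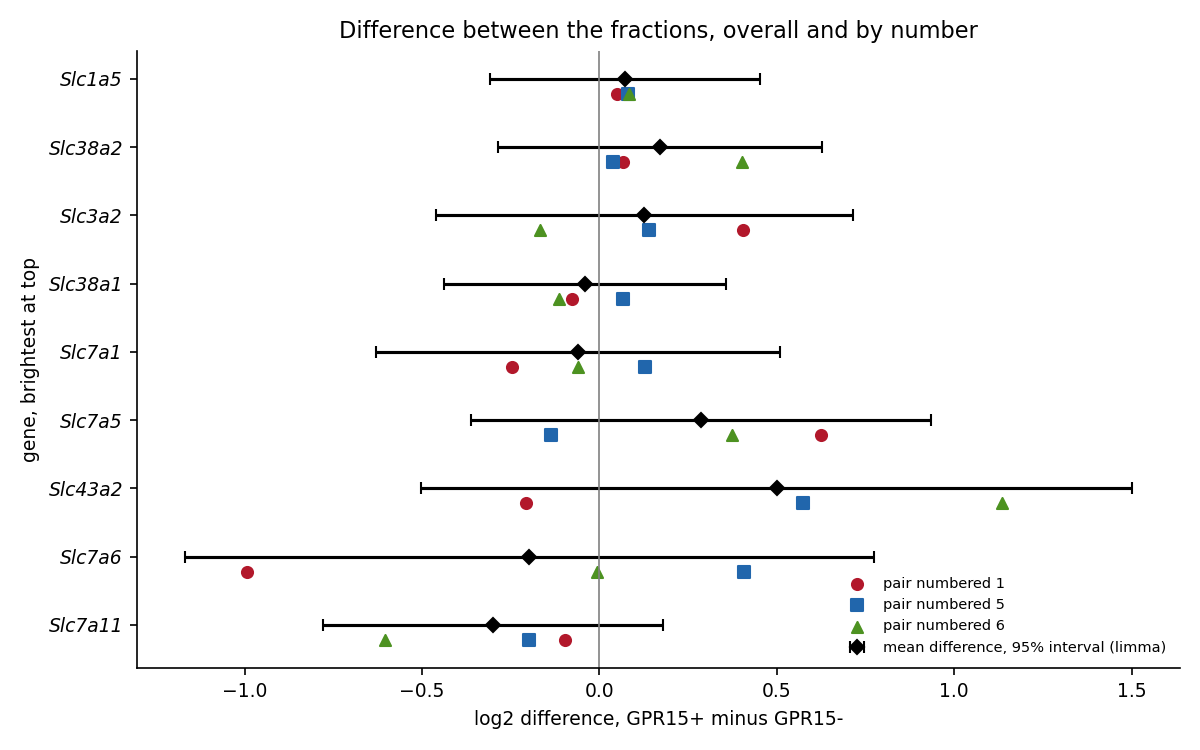
Log2 difference, GPR15+ minus GPR15- (horizontal axis), of each transporter (rows, brightest at top): black diamonds with bars are limma's estimate and 95% interval over 3 against 3 arrays, coloured points the pairs of equal number. All 9 intervals include 0, and Slc43a2 (0.50) and Slc7a6 (-0.20) have the widest spread between pairs.

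For 8 of the 9 genes, all but Slc7a11, the arrays numbered 1 stood further from the other 4 than the fractions stood from each other. The share of all genes for which this holds was not counted, so it is not shown to be particular to the transporters. The arrays numbered 1 averaged lower than those numbered 5 and 6 for 8 of the 9 genes, by a median of -0.33 log2 units, while 40.5% of all genes were lower there and their median was 0.09. The gap was -1.003 for Slc43a2, -0.97 for Slc7a6, -0.56 for Slc7a5 and -0.55 for Slc3a2, and it was 0.33 for Slc38a2. Over all genes the gap went along with brightness. Among genes in the top 20% of level 71.2% were lower on the arrays numbered 1 (median -0.28). In the middle 60% of level 36.2% were lower (median 0.13), and in the bottom 20% of level 22.6% were. Slc43a2 and Slc7a6, with the largest gaps of the 9, lay in that middle range, and Slc1a5, the brightest, had a gap of -0.16. Values on the 2 arrays numbered 1 were also the least spread (SD 1.63, against 1.74 to 1.87 on the others). The part of this spread in the transporters' gap was not tested, and the labels do not say what the numbers stand for.

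Genes with the most similar profile over the 6 arrays are given as a description, since arrays of equal number deviate together and 6 arrays are few. For Slc43a2, the member with the largest SD, these were Mrs2 (Pearson r = 0.996), Anapc10 (0.994) and Dcaf17 (0.994), among 9325 genes above the median level. Set aside beforehand were certain forms of predicted or provisional names, segments of antigen receptors, odorant and pheromone receptor genes, and small RNAs. For Slc7a5 the most similar were D11Wsu47e (0.997), a provisional name of a form not set aside, Dnajb2 (0.987) and Septin6 (0.985).

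Genes around the transporters were read from the same fit, in 8 lists, and none passed over all genes (smallest limma adjusted p 0.773). At an unadjusted limma p under 0.05 the 33 other plasma membrane transporters had 0 higher and 2 lower, where 6.23% of all genes passed in either direction. These were Slc6a9, at -0.36 ± 0.15 (SE), and Slc7a13, at -0.50 ± 0.21 (SE), a dim row; the next by p was the amino acid transporter Slc6a18 (-0.31). Slc6a9 imports glycine and read 8.65, 8.58 and 8.63 on the GPR15- arrays against 8.38, 8.21 and 8.20 on the GPR15+ arrays, with no overlap. Of the 33, 6 did not overlap between the fractions, 1 higher and 5 lower, against 13.3% of all genes, and 27 lay below 0 (median -0.14), where 59.2% of all genes and 68.1% of those in the bottom 20% of level did. Without GPR15+ replicate 1 the median was -0.28, and without GPR15+ replicate 5 it was -0.04. Slc6a6, which imports taurine, also did not overlap, at 0.21 ± 0.16 (SE).

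Transporters of the lysosome can return amino acids from degraded protein to the cytosol, though not every gene of this list does so. Of 12, 0 were higher and 1 lower at an unadjusted limma p under 0.05 (6.23% of all genes), the cationic amino acid exporter Slc66a1 at -0.50 ± 0.19 (SE), and the median was -0.23. Mfsd12 (-0.41) and Slc7a14 (-0.53) came next by p. With the replicate block 1 was higher and 3 lower, where 12.4% of all genes passed. Without GPR15+ replicate 1 the median was -0.11.

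In the list of amino acid sensing by mTORC1, 25 of 33 genes lay above 0 (median 0.12), against 40.8% of all genes, and 1 was higher and 0 lower at an unadjusted limma p under 0.05, against 6.23%. Of these genes 11 were in the top 20% of level, where 37.4% of genes lay below 0, fewer than the 59.2% of all genes. The gene that passed was Tsc1, whose product restrains mTORC1, at 0.81 ± 0.24 (SE). As the list includes such restraining genes, the count above 0 gives no direction for mTORC1 itself. Tsc1 read 8.09, 7.41 and 7.73 on the GPR15- arrays and 8.34, 8.92 and 8.38 on the GPR15+ arrays, with no overlap. The Rag GTPase Rragc (0.63) and the KICSTOR subunit Itfg2 (-0.43) followed by p. With the replicate block 5 were higher and 1 lower, where 12.4% of all genes passed in either direction. The list's median was -0.15 in the pair numbered 1 and 0.42 and 0.20 in the pairs numbered 5 and 6. Leaving out GPR15+ replicate 1, 5 or 6 gave 0.45, -0.03 or 0.04.

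In the ATF4 list, 11 of 22 genes lay above 0 and 11 below (median -0.02), where 40.8% of all genes lay above. At an unadjusted limma p under 0.05, 1 was higher and 1 lower, against 6.23% of all genes. Of the 22, 5 did not overlap between the fractions, against 13.3% of all genes. Asns read 9.22, 8.88 and 8.79 on the GPR15- arrays and 8.16, 8.30 and 8.13 on the GPR15+ arrays, with no overlap, at -0.77 ± 0.18 (SE; limma adjusted p = 0.773). Ddit3, a stress transcription factor, was at 0.36 ± 0.15 (SE), and Cebpb at -0.32. The C/EBP-ATF element shown above for Slc7a11 and Asns was in the windows of 7 genes of this list, 6 of them measured. Of those 6, 5 lay below 0, as did 59.2% of all genes: Asns, Nupr1 (-0.38), Vldlr (-0.29), Atf3 (-0.21) and Trib3 (-0.16). Chac1 lay above at 0.05. Slc7a11, with 2 elements, lay at -0.30, and Atf4 itself at 0.10. With so few genes, nothing about the element can be read from these values.

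Enzymes that use the imported amino acids had 0 genes with an unadjusted limma p under 0.05 in any of 3 lists, against 6.23% of all genes. For glutamine and branched-chain amino acids 7 of 10 lay above 0 (median 0.15), against 40.8% of all genes, with Gfpt1 (0.37), Bckdhb (0.66) and Ppat (0.45) first by p. With the replicate block 3 were higher and 0 lower, where 12.4% of all genes passed. The median was 0.070 without GPR15- replicate 6. For cystine and glutathione 7 of 12 lay above 0 (median 0.09), against the same 40.8%. The sensor Keap1 lay at 0.63, Cd44, whose product is known to stabilise xCT, at -0.45 and the glutathione synthesis gene Gclc at 0.32. That list's median was -0.06 without GPR15+ replicate 5, and with the replicate block 1 was higher and 1 lower, against the same 12.4%. For cationic amino acids and polyamines 5 of 8 lay above 0 (median 0.02), again against 40.8%, with Arg1 at -0.24, Azin1 at 0.51 and Arg2 at -0.29. Azin1 stood at 1.98, -0.15 and -0.32 in the pairs numbered 1, 5 and 6. Without both arrays numbered 1, Azin1 was -0.23 and Arg2 0.02. The median of this list turned below 0 without GPR15- replicate 6 (-0.04).

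Of 13 regulators of the transporters, 9 lay above 0 (median 0.04), against 40.8% of all genes, and 2 were higher and 0 lower at an unadjusted limma p under 0.05, against 6.23%. These were Irf4, a transcription factor of activated T cells, at 0.45 ± 0.19 (SE), and the arrestin-domain gene Arrdc3 at 0.57 ± 0.25 (SE). Myc, which is known to drive Slc7a5 and Slc1a5 in activated T cells, read 8.99, 9.88 and 9.51 on the GPR15- arrays and 7.85, 9.60 and 9.28 on the GPR15+ arrays, at -0.55 ± 0.45 (SE). The GPR15+ array numbered 1 was the lowest by more than a log2 unit. The list's median was -0.03 without GPR15+ replicate 6.

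**Figure D4:**
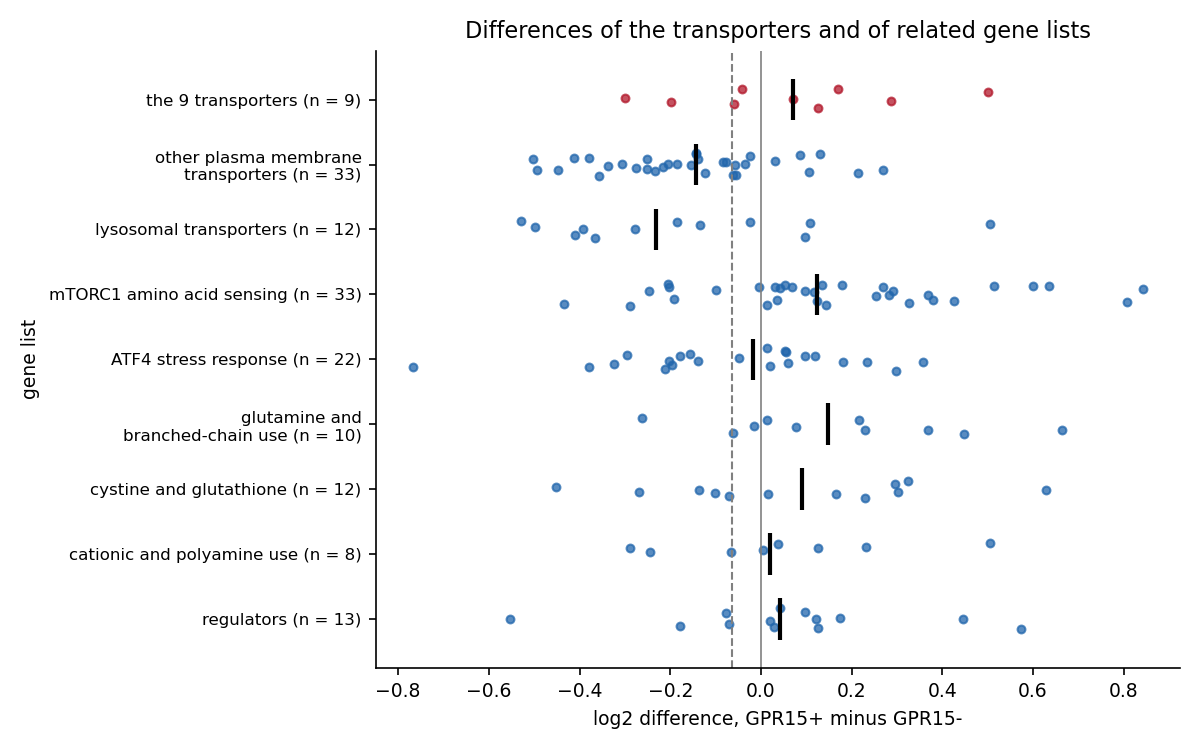
Log2 difference, GPR15+ minus GPR15- (horizontal axis), of every gene of the 9 transporters (red) and of the 8 related lists (blue, rows); black bars are list medians, the dashed line the median of all genes (-0.06). The transporters' median is 0.07, and the lowest point of the ATF4 row is Asns (-0.77).

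The labels were checked on the same arrays. Gpr15 lay lower in the samples labelled GPR15+, by -0.65 ± 0.22 (SE), which is the opposite of what the labels say. Where the probes of this row lie relative to the sequence that the reporter may replace is not given in the sources used here. The row may therefore not check the labels, and every direction above rests on the labels alone. Cd4 lay at 0.14 ± 0.27 (SE) and Ptprc, the CD45 gene, at 0.15 ± 0.22 (SE). All 9 measured T cell markers were in the top 20% of level, as were 6 of 9 Treg markers, but Il2ra, the CD25 gene, was dim at the 20 percentile; Foxp3 was not analysed here. Median log2 values of the arrays were 6.49 to 6.64. The counts of markers below 0 that follow stand beside 59.2% of all genes, 63.5% of those in the middle 60% of level and 68.1% of those in the bottom 20%. Of 11 epithelial markers, 9 lay below 0 and 0 were in the top 20% of level; their mean level was 6.54 to 6.64 on the GPR15- and 6.25 to 6.51 on the GPR15+ arrays. Of 10 markers of macrophages, monocytes and granulocytes 8 lay below 0 and 0 were in the top 20%, at 5.77 to 6.12 and 5.65 to 6.23. The largest difference among these markers went the other way, Cybb at 1.17 ± 0.45 (SE), above 0 in all 3 pairs. Of 7 dendritic cell markers 6 lay below 0, at 6.18 to 6.27 and 5.89 to 6.20. Of 7 B and plasma cell markers 6 lay below 0, at 6.08 to 6.31 and 5.71 to 5.97. Stromal markers lay below 0 in 8 of 10, those of CD8 T and NK cells in 5 of 9 and those of innate lymphoid and mast cells in 3 of 6. Their part in the transporters' values was not tested. In sorted populations a smaller share of cells with a transcript and less of it per cell cannot be told apart.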

How the data were processed

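The authors deposited log2 values per transcript cluster of a 1-colour Affymetrix array, made by RMA per the submitters' processing notes, a method that corrects background, quantile-normalizes and sums up probes; versions, annotation build and detection calls are not given in the sources used here. Such values compress small differences of dim genes and can differ in spread between arrays. Of 22142 rows, 19527 had 1 gene symbol in GEO's platform annotation, 0 had several and 2615 had none. For a gene with several rows (33 genes) the row with the highest mean was taken, which left 19494 genes. Groups and numbers came from the sample titles. The test was limma (version 3.58.1, R 4.3.3; lmFit and eBayes without a block), adjusted by Benjamini-Hochberg across the 19494 genes, with a threshold of 0.05 and 95% intervals from the moderated fit. The script was tested on simulated data.

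Deviations from the group means correlated at 0.567, 0.381 and 0.319 between samples of equal number (1, 5 and 6), each over 0.1. Samples of equal number were therefore treated as pairs in the differences by number and in the block fit. The SEs and intervals given for single genes come from the fit without the block and ignore the pairing. With the block the SE of Slc43a2 was 0.25 and its interval -0.09 to 1.09. The smallest adjusted limma p among the 9 was then 0.456. GPR15- 6 with GPR15+ 5 (0.315) and GPR15- 5 with GPR15+ 6 (0.213) also passed that mark, so 5 and 6 were hardly parted. Nothing states that samples came from separate animals, so a p-value reflects only how these samples spread. The number of arrays limits precision.

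The members and lists were chosen with earlier results of these data known, so lists are described by counts and medians. Named were all 9 transporters, Gpr15, Ptprc, Cd4, the 3 genes of each related list with the smallest p, and 3 genes with the most similar profile. Others (Slc6a6, Nupr1, Vldlr, Atf3, Trib3, Chac1, Atf4, Il2ra, Cybb, Slc38a10 and Slc1a2) were named after their values were seen or for a sequence match. Alternatives were the number as a block, leaving out the 40% dimmest genes, median centring, quantile normalization, cyclic loess, means over rows, array weights, an intensity trend, and leaving out arrays. Promoter sequences are from RefSeq (GRCm38.p6).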

Additional observations from a re-analysis of the deposited data

How the results depend on the processing

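No setting other than array weights brought any of the 9 transporters past an adjusted limma p of 0.05, and the replicate block changed no member's call (0 genes called). Array weights called 2174 genes, and the block without both arrays numbered 1, an alternative chosen after seeing the data, called 22, none of them among the 9. With array weights Slc3a2 was -0.0096 and Slc7a6 0.17, the opposite sign of the main values. Arrays centred on their medians moved Slc7a1 to 0.0097 and Slc38a1 to 0.028. Without both arrays numbered 1, with or without the block, Slc3a2 was -0.013, Slc7a1 0.033 and Slc7a6 0.20. Slc7a6 minus Slc3a2, run there without the block only, was 0.21. With 1 array left out, Slc3a2 ranged from -0.13 to 0.27, Slc1a5 from -0.0016 to 0.14, Slc7a1 from -0.29 to 0.10, Slc7a6 from -0.47 to 0.33, Slc38a1 from -0.15 to 0.036 and Slc7a6 minus Slc3a2 from -0.57 to 0.084. The transporters' median ranged from -0.10 to 0.14. Genes without overlap numbered 3583 (18.4%) to 9310 (47.8%, without GPR15+ replicate 1) with 1 array left out. They numbered 10919 (56%) without both arrays numbered 1. Groups of fewer arrays part more easily, so these counts cannot be compared with those of all 6 arrays. Without the dimmest genes they numbered 1583 of fewer genes (13.5%), and that filter removed Slc7a11. The ATF4 list's median was 0.052 with centring, -0.10 with quantile normalization, -0.13 with array weights, -0.084 without both arrays numbered 1 and -0.096 to 0.0036 with 1 array left out. The other plasma membrane list ranged from -0.28 to -0.041, the lysosomal list from -0.30 to -0.11 and the mTORC1 list from -0.028 to 0.45. Medians of the related lists were computed under these settings after seeing the data. The cause of these shifts was not tested. The number of arrays and the dim rows limit what can be told.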

Other observations

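Among the transporters outside the 9, Slc38a10 and Slc1a2 had the widest spread over the 6 arrays and were singled out after their values were seen. Slc38a10, of the family of the glutamine carriers, read 6.22, 5.88 and 8.72 on the GPR15- arrays numbered 1, 5 and 6, and 5.92, 7.76 and 6.01 on the GPR15+ arrays. A single array stood high in each fraction, with a different number, so the pairs stood at -0.31, 1.88 and -2.71 (limma adjusted p = 0.927). Slc1a2, a glutamate transporter, read 7.31, 5.50 and 5.95 on the GPR15- arrays and 7.50, 4.53 and 5.38 on the GPR15+ arrays (limma adjusted p = 0.911). Its highest value in each fraction was on the array numbered 1, as for Slc38a2 among the 9.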
